A study of Mus musculus with 4 samples.

Results

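The genes described here were 9 enzymes that remove superoxide and peroxides, Sod1, Sod2, Cat, Gpx1, Gpx4, Prdx1, Prdx2, Prdx3 and Prdx5, together with Nfe2l2, the gene of the transcription factor NRF2. They were taken by gene symbol, as a list, from the 29300 genes of a count table of mouse hippocampus, and each of the 10 symbols matched 1 row. The table holds RNA sequencing counts from poly(A)-enriched RNA of 4 wild-type male mice of the C57BL/6 strain, aged 7 to 8 months, 2 in each of 2 groups. All mice were anesthetized with isoflurane and received the analgesic tramadol. The surgery mice then had an open fracture of the tibial shaft fixed with a pin inside the marrow cavity, and the control mice, labelled sham, had anesthesia only. Hippocampal RNA was taken on day 1 after the operation. The comparison asks how the RNA levels of the antioxidant genes differed between mice with and without the fracture operation, and the control group does not separate skin incision, fracture, fixation and pain from one another.

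Superoxide arises mainly as a by-product of the mitochondrial respiratory chain and is turned into hydrogen peroxide by superoxide dismutases, SOD1 in the cytosol and SOD2 in the mitochondrial matrix. Hydrogen peroxide is then removed by catalase in peroxisomes and by peroxiredoxins, which most often use thioredoxin. It is also removed by the glutathione peroxidases GPX1 and GPX4, which use glutathione and carry selenocysteine. NRF2 is kept low by KEAP1, which hands it to a CUL3 ubiquitin ligase. When KEAP1 is modified by oxidants, NRF2 accumulates and binds antioxidant response elements in the promoters of many of these genes.

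Library totals lay between 15763432 and 18573386 counts, and 17144 genes passed the filter on low counts and were tested. The share of counts from the mitochondrial chromosome was 3.05% and 2.70% for control mice against 5.10% and 5.14% for surgery mice, so the groups did not overlap in this measure. Hippocampal and neuronal markers were present in all 4 libraries, with a summed level of 5484 to 6110 CPM (counts relative to the library's total after TMM scaling) for 7 neuronal markers and of 978 to 1089 CPM for 6 markers of hippocampal principal cells, and of the latter 2 were called higher and 3 lower. The neuronal markers summed to 6110 and 5911 CPM in control mice and to 5787 and 5484 CPM in surgery mice, with Gad2 called higher and Slc17a7, the glutamate transporter of excitatory neurons, called lower (log2 fold change -0.39). Without Slc17a7 the other 6 summed to 4401 and 4242 CPM in control mice and to 4484 and 4201 CPM in surgery mice, with overlap, and the median log2 fold change of all 7 was 0.01. The 6 astrocyte markers summed to 3305 to 3557 CPM in control mice and 3883 to 4105 CPM in surgery mice. Of them 3 were called higher and 1, Aldh1l1, lower (log2 fold change -0.49), where called means an adjusted p under 0.05 by edgeR. Slc1a2 alone made up 2276 and 2154 CPM of the sums in control mice and 2780 and 2625 CPM in surgery mice. Choroid plexus markers summed to 126 CPM in control mouse 1 and to 2021 to 5387 CPM in the other 3 libraries, so that control mouse 1 stood apart. The 6 oligodendrocyte markers summed to 3927 to 6183 CPM and the 6 microglial markers to 246 to 256 CPM, and in both lists the groups overlapped, with 1 microglial marker, P2ry12, called higher (log2 fold change 0.84, and 0.15 with the offsets described below). The markers of red blood cells, which are rich in catalase and PRDX2, summed to 5.09 to 11.2 CPM over all libraries, and those of neutrophils to 2.07 to 14.9 CPM with 1 of 4 called lower, and both sums overlapped between groups. The 5 endothelial markers summed to 174 and 177 CPM in control mice and to 204 and 261 CPM in surgery mice, with 2 called higher and 0 lower. In bulk tissue of this kind, fewer cells of a type and less RNA per cell cannot be told apart. The part of these differences in the results below was not tested.

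All 10 genes passed the filter, with 244 to 3686 counts per library. The quasi-likelihood test of edgeR was adjusted by the Benjamini-Hochberg method over all 17144 genes, and at an adjusted p under 0.05 it called 6 of the 10, which is 60% of the list beside 26.0% of all genes tested. Prdx1 and Nfe2l2 were higher in surgery mice, and Sod1, Gpx4, Prdx2 and Prdx5 were lower. The 2 higher genes made up 20% of the list beside 13.1% of all genes tested, and the 4 lower genes 40% beside 12.8%. Sod2, Cat, Gpx1 and Prdx3 were not called. The median log2 fold change of the 10 genes was -0.17, beside 0.01 for all genes tested, and single values ran from -0.53 to 0.58. Without each mouse in turn this median ran from -0.28 to -0.10. With the GC and length offsets described below it was -0.06, and 1 of the 10 genes was called, lower. Over all genes tested 99 were then called higher and 218 lower. Both surgery mice lay beyond both control mice for 9 of the 10 genes, 3 above and 6 below, and 65.5% of all genes tested were separated in this way (33.2% above and 32.2% below). None of the 10 combined an adjusted p under 0.05 by edgeR with a fold of 1.5 or more or of 0.67 or less, limits that 9.01% of all genes tested passed (6.75% higher and 2.25% lower). The count of 0 was the same with DESeq2 and with limma's voom, was 1 with library totals only, with a minimum count of 30 and with the GC and length offsets described below, 2 without control mouse 1 and 3 without surgery mouse 1, and 7 of the 10 genes had an unadjusted edgeR p under 0.05.

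**Figure D1:**
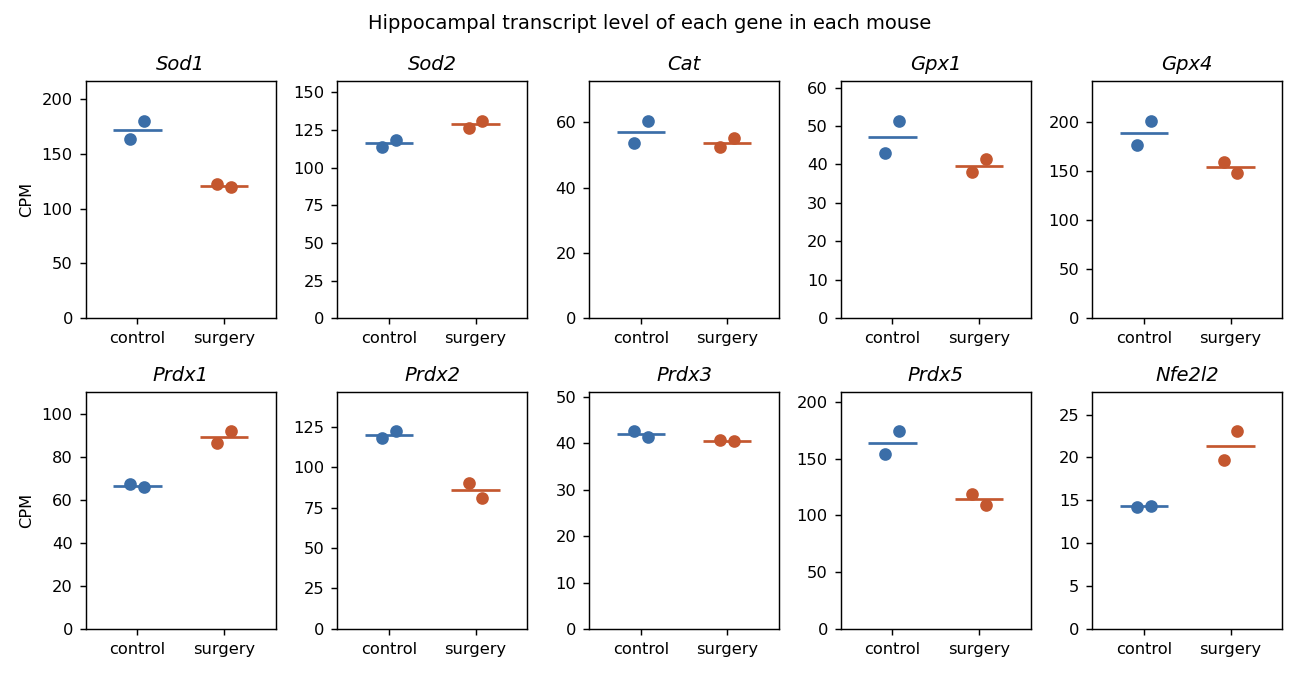
Level of each of the 10 genes in each mouse, in CPM (counts relative to the library's total), with control mice in blue and surgery mice in orange and each panel on its own axis from 0. Both surgery mice lie below both control mice for Sod1, Gpx1, Gpx4, Prdx2, Prdx3 and Prdx5 and above them for Sod2, Prdx1 and Nfe2l2, while Cat overlaps.

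Of the superoxide dismutases, Sod1 was called lower and Sod2 was not called. Sod1 (ENSMUSG00000022982, mm10 chr16:90220742-90226322, plus strand), the copper and zinc enzyme of the cytosol, was measured at 164 and 180.4 CPM in the control mice and at 123 and 119 CPM in the surgery mice. Both surgery mice were below both control mice, and the surgery mice were close to each other. The group means were 172 ± 11.8 CPM in control mice and 121 ± 2.31 CPM in surgery mice (SD, n = 2 each), a log2 fold change of -0.51 (SE 0.071, edgeR adjusted p = 0.00599), or 29.6% less. Leaving out each mouse in turn left the log2 fold change of Sod1 between -0.58 and -0.44. Sod2 (ENSMUSG00000006818, mm10 chr17:13007839-13018119, plus strand), the manganese enzyme of the mitochondrial matrix, stood at 114 and 118 CPM in the control mice and at 126 and 131 CPM in the surgery mice. Its groups did not overlap, yet the log2 fold change of 0.15 (SE 0.063) did not pass the edgeR test (adjusted p = 0.125). Of its 75-base windows, 16.2% also occur in transcripts of 30 other genes. Ccs, the chaperone that loads copper into SOD1, was measured at 19.6 and 19.9 CPM in control mice and at 12.9 and 15.3 CPM in surgery mice. It was the only 1 of 7 tested relatives outside the list to be called, and it was lower (log2 fold change -0.49, SE 0.13, edgeR adjusted p = 0.0384). The call was lost on leaving out any of 3 of the 4 mice and was not made by DESeq2 (adjusted p = 0.0555). With the GC and length offsets described below Ccs stood at -0.27 (edgeR adjusted p = 0.282). Sod3, the extracellular dismutase, had a log2 fold change of -0.10 (edgeR adjusted p = 0.84).

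The ratio of the counts of 2 genes within 1 library does not depend on a scaling factor shared by all its genes, but it does change with offsets that differ between genes, such as the GC and length offsets described below. The Sod2 to Sod1 ratio was 0.696 and 0.654 for control mice against 1.03 and 1.10 for surgery mice. Sod2 thus had fewer counts than Sod1 in both control mice and more in both surgery mice, which says nothing of the number of molecules, since Sod2 transcripts are longer. On the log2 scale the ratio differed by 0.66 between the groups, by 0.70 with those offsets, and by 0.13 with offsets from the principal coding transcript, which were chosen after seeing the data.

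Of catalase and the 2 glutathione peroxidases on the list, Gpx4 was called lower and Cat and Gpx1 were not called. Cat (ENSMUSG00000027187, mm10 chr2:103453849-103485160, minus strand), the peroxisomal enzyme that splits hydrogen peroxide, was measured at 53.6 and 60.6 CPM in control mice and at 52.4 and 55.2 CPM in surgery mice. The groups overlapped, with a log2 fold change of -0.09 (SE 0.088, edgeR adjusted p = 0.514). Gpx4 (ENSMUSG00000075706, mm10 chr10:80047166-80056439, plus strand), which reduces lipid peroxides in membranes and holds back ferroptosis, stood at 176 and 202 CPM in control mice and at 159 and 148 CPM in surgery mice. The groups did not overlap, with the surgery mice lower. The means were 189 ± 17.8 and 154 ± 7.84 CPM (SD, n = 2 each), a log2 fold change of -0.30 (SE 0.083, edgeR adjusted p = 0.0426), or 18.7% less. The Gpx4 call was lost without control mouse 2 (log2 fold change -0.20, edgeR adjusted p = 0.172) and without surgery mouse 2 (-0.24, edgeR adjusted p = 0.146). Of the 75-base windows of Gpx4 transcripts, 29.8% also occur in transcripts of 2 other genes, Gpx4 pseudogenes among them, and 1 such pseudogene row alone held 642 to 822 counts per library. With the pseudogene counts added to Gpx4, the log2 fold change was -0.27 (SE 0.077, edgeR adjusted p = 0.0463), a sum chosen after seeing the data. With the GC and length offsets Gpx4 stood at -0.03 (edgeR adjusted p = 0.886). Gpx1 (ENSMUSG00000063856, mm10 chr9:108338903-108340343, plus strand), the main cytosolic glutathione peroxidase, was measured at 43.1 and 51.4 CPM in control mice and at 37.9 and 41.4 CPM in surgery mice. The surgery mice were the lower group without overlap, but the log2 fold change of -0.25 (SE 0.11) was not called (edgeR adjusted p = 0.141). The Gpx1 to Gpx4 ratio of counts, 0.244 and 0.255 in control mice and 0.238 and 0.279 in surgery mice, overlapped between the groups. The other glutathione peroxidases tested were low and not called, Gpx3 at a log2 fold change of 0.50 (edgeR adjusted p = 0.152), Gpx7 at 0.20 (edgeR adjusted p = 0.607) and Gpx8 at 0.86 (edgeR adjusted p = 0.296).

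Of the peroxiredoxins, Prdx1 was called higher and Prdx2 and Prdx5 lower, while with the GC and length offsets Prdx1 stood at 0.04 (edgeR adjusted p = 0.815). Prdx1 (ENSMUSG00000028691, mm10 chr4:116685544-116700822, plus strand), a cytosolic peroxiredoxin found mainly in glia, was measured at 67.3 and 66.0 CPM in control mice and at 86.7 and 91.9 CPM in surgery mice. Both surgery mice were above both control mice, and the control mice were nearly equal. The means were 66.7 ± 0.962 and 89.3 ± 3.71 CPM (SD, n = 2 each), a log2 fold change of 0.42 (SE 0.069, edgeR adjusted p = 0.00836), or 33.9% more. Prdx2 (ENSMUSG00000005161, mm10 chr8:84969587-84974834, plus strand), a cytosolic peroxiredoxin found mainly in neurons, stood at 118 and 122 CPM in control mice and at 90.4 and 81.0 CPM in surgery mice. The surgery mice were again the lower group, with no overlap. The means were 120.2 ± 2.89 and 85.7 ± 6.66 CPM (SD, n = 2 each), a log2 fold change of -0.49 (SE 0.077, edgeR adjusted p = 0.00738), or 28.7% less. Without each mouse in turn the log2 fold change ran from 0.38 to 0.45 for Prdx1 and from -0.58 to -0.41 for Prdx2. With the GC and length offsets Prdx2 stood at -0.44 and was not called (edgeR adjusted p = 0.0533). The exons of Prdx2 overlap Rnaseh2a and Junb on the opposite strand over 350 bases, and whether counting used strand is not stated. The summed astrocyte markers were higher in the surgery mice, as given above, with Slc1a2 the largest part of the sum and Aldh1l1 called lower. The part of astrocytes in the values of Prdx1 was not tested. Within the libraries the Prdx1 to Prdx2 ratio of counts was 0.570 and 0.540 in control mice and 0.958 and 1.13 in surgery mice. Prdx1 thus had fewer counts than Prdx2 in both control mice and about as many in the surgery mice. The difference in this ratio was 0.91 on the log2 scale, and 0.47 with the GC and length offsets.

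Prdx5 (ENSMUSG00000024953, mm10 chr19:6906697-6910106, minus strand), whose protein works in mitochondria, peroxisomes and cytosol, was called lower, a call that was lost with the GC and length offsets (log2 fold change -0.30, edgeR adjusted p = 0.103). It was measured at 154 and 174 CPM in control mice and at 119 and 109 CPM in surgery mice. Neither surgery mouse reached the lower control mouse. The means were 164 ± 14.0 and 114 ± 6.68 CPM (SD, n = 2 each), a log2 fold change of -0.53 (SE 0.083, edgeR adjusted p = 0.00753), or 30.5% less. Its exons overlap those of Trmt112 over 409 bases on the opposite strand, and Trmt112 held 241 to 384 counts per library beside 1845 to 3182 for Prdx5. Prdx3 (ENSMUSG00000024997, mm10 chr19:60864051-60874556, minus strand), the peroxiredoxin of the mitochondrial matrix, was measured at 42.6 and 41.3 CPM in control mice and at 40.6 and 40.5 CPM in surgery mice. The groups did not overlap by a small margin, and the log2 fold change of -0.05 (SE 0.078) was not called (edgeR adjusted p = 0.691). The Prdx3 to Prdx5 ratio of counts was 0.276 and 0.237 in control mice and 0.342 and 0.371 in surgery mice, a log2 difference of 0.48 that was -0.03 with the offsets. Of the peroxiredoxins outside the list, Prdx6, which also acts on phospholipid peroxides, was measured at 193 and 203 CPM in control mice and at 178 CPM in both surgery mice. It was not called (log2 fold change -0.15, edgeR adjusted p = 0.106), nor was Prdx4, the peroxiredoxin of the endoplasmic reticulum (0.23, edgeR adjusted p = 0.41).

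**Figure D2:**
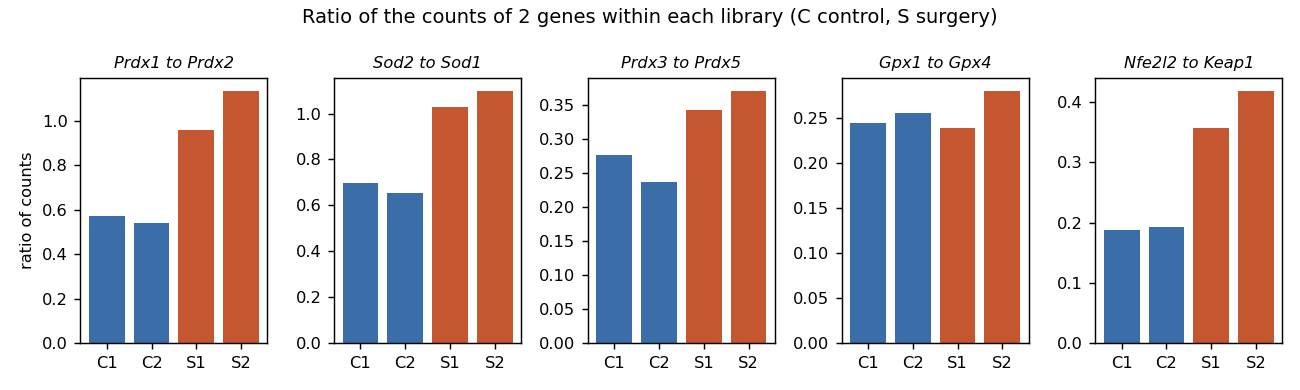
Ratio of the counts of 2 genes within each library, control mice C1 and C2 in blue and surgery mice S1 and S2 in orange, each panel on its own axis from 0. The Prdx1 to Prdx2 ratio is 0.570 and 0.540 in control mice and 0.958 and 1.13 in surgery mice, and the Gpx1 to Gpx4 ratio is the only one of the 5 in which the groups overlap (counts as deposited, without GC and length offsets).

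Nfe2l2 (ENSMUSG00000015839, mm10 chr2:75675513-75704641, minus strand) had the least RNA of the 10 genes and the largest positive fold change. It was measured at 14.2 and 14.4 CPM in control mice and at 19.7 and 23.0 CPM in surgery mice. The surgery mice were the higher group without overlap, with a wider spread among the surgery mice. The means were 14.3 ± 0.158 and 21.4 ± 2.38 CPM (SD, n = 2 each), a log2 fold change of 0.58 (SE 0.13, edgeR adjusted p = 0.0199), or 49.7% more. The call was not held by every set of 3 mice. The edgeR adjusted p was 0.0558 without control mouse 1, 0.0622 without control mouse 2 and 0.0801 without surgery mouse 2, with log2 fold changes of 0.57, 0.59 and 0.47. With the GC and length offsets Nfe2l2 stood at 0.31 and was not called (edgeR adjusted p = 0.206). Keap1, the gene of the protein that holds NRF2 down, was measured at 75.2 and 74.5 CPM in control mice and at 55.1 and 55.0 CPM in surgery mice. Keap1 was lower in both surgery mice (log2 fold change -0.44, SE 0.068, edgeR adjusted p = 0.00705), but with the GC and length offsets described below it stood at -0.14 (edgeR adjusted p = 0.339). The Nfe2l2 to Keap1 ratio of counts was 0.188 and 0.193 in control mice and 0.357 and 0.419 in surgery mice, a log2 difference of 1.02 that was 0.45 with the offsets. These are RNA levels, while NRF2 activity is set largely by the stability of the protein, which was not measured here.

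The promoters of the 10 genes were searched for the core of the antioxidant response element that NRF2 binds, TGACNNNGC on either strand, in RefSeq windows from 250 bases before to 50 bases after each start on GRCm38.p6. Windows of 3 of the 10 genes, Sod1, Prdx1 and Nfe2l2, held it, and 12.4% of all 32851 promoter windows of the same length held it. These 3 are shown because they hold the core and include genes called in both directions. Each line gives 250 bases 5′ to 3′ on the strand of the gene, with the match in capitals. The windows are chr16:90220512-90220761 on the plus strand for Sod1, chr4:116685349-116685598 on the plus strand for Prdx1 and chr2:75704664-75704913 on the minus strand for Nfe2l2. The match lies on the opposite strand in Sod1 and Prdx1 and on the strand of the gene in Nfe2l2.
Sod1: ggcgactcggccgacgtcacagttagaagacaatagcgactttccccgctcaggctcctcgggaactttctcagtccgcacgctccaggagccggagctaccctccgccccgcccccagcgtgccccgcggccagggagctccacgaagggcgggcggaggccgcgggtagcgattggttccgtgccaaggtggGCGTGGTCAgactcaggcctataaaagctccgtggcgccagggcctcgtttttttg
Prdx1: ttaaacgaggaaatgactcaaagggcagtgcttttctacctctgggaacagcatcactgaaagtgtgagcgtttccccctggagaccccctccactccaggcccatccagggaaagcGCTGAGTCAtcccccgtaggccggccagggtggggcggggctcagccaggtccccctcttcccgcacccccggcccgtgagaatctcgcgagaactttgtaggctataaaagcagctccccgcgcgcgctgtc
Nfe2l2: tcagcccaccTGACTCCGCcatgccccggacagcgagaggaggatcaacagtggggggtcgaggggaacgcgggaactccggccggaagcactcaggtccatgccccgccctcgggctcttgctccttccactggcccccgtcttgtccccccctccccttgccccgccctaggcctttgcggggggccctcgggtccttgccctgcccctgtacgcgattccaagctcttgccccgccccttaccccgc
The matches begin 56, 133 and 240 bases before the start of Sod1, Prdx1 and Nfe2l2. In Prdx1 the match reads TGACTCAGC on its own strand, in Nfe2l2 TGACTCCGC and in Sod1 TGACCACGC. Of the 3 genes with the core, Prdx1 and Nfe2l2 were called higher and Sod1 lower. The core of the GC box, CCGCCC on either strand, occurred in windows of all 10 genes, though not in every window of Gpx4, and in 35.7% of all promoter windows. Matches to the 2 motifs can overlap, though they do not in the 3 sequences shown. A match describes the letters only, and binding at these places was not measured.

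Levels of different genes are comparable only per length, and per kilobase of the exon union of each gene Gpx4 stood highest in the control mice at 109.7 ± 10.3 CPM per kilobase (SD, n = 2). Prdx5 followed at 76.7 CPM per kilobase, Sod1 at 43.3, Prdx2 at 39.4, Gpx1 at 32.8, Prdx3 at 28.4, Prdx1 and Cat at 21.9 each, Sod2 at 11.6 and Nfe2l2 at 3.76. Prdx1 and Cat overlapped in the control mice, and the other neighbours in this order did not. In the surgery mice the middle of the order closed up. Sod1 at 30.5, Prdx1 at 29.3, Prdx2 at 28.1, Gpx1 at 27.5 and Prdx3 at 27.5 CPM per kilobase each overlapped with the next, while Gpx4 at 89.2 and Prdx5 at 53.3 stayed above and Cat at 20.6, Sod2 at 12.9 and Nfe2l2 at 5.63 below. Prdx1 thereby moved from rank 7 to rank 4 of the 10 genes, and from rank 6 to rank 5 per kilobase of the principal coding transcript. These ranks use levels without the GC and length offsets described below, with which the log2 fold change of Prdx1 was 0.04 in place of 0.42. The order depends on the length used, since the exon union of Sod1 spans 3970 bases and its principal coding transcript 641. Per kilobase of the principal coding transcript, a length chosen after seeing the data, Sod1 came first at 268 ± 18.4 CPM per kilobase in the control mice and 189 in the surgery mice, ahead of Gpx4 at 197 and 160.4.

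Summed over the 9 enzymes, without regard to length, the level was 933 and 1016 CPM in the control mice and 835 and 818 CPM in the surgery mice. The surgery mice lay lower without overlap, and the 4 genes with the most counts in the control mice, Gpx4, Sod1, Prdx5 and Prdx2, were the 4 that were called lower.

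Across 17120 genes of these libraries, which are not independent replicates, the log2 fold change was correlated with the GC content of the transcripts (Spearman's rho -0.64) and less with exon length (0.13). Prdx1 and Nfe2l2, the genes called higher, had transcripts of 43.5% and 45.4% GC, and the 4 genes called lower had 48.4% to 58.3%, beside a median of 49.97% for all genes tested. With offsets in the edgeR fit that remove smooth trends with GC content and length from each library, 99 genes were called higher and 218 lower in place of 2249 and 2201. Sod1 alone of the 10 genes was then called (log2 fold change -0.61, edgeR adjusted p = 0.0285). Prdx2 was at -0.44 (edgeR adjusted p = 0.0533) and Prdx5 at -0.30 (edgeR adjusted p = 0.103). Prdx1 was at 0.04, Gpx4 at -0.03 and Nfe2l2 at 0.31, with edgeR adjusted p of 0.815, 0.886 and 0.206. With GC content and length taken from the principal coding transcript, chosen after seeing the data, Sod1 (-0.43) and Prdx2 (-0.49) were called, both at an edgeR adjusted p of 0.0484, and Prdx1 stood at -0.02. The directions of Prdx1 and of Sod2 (-0.30, edgeR adjusted p = 0.0835) therefore were not held by this scaling, while Sod1, Prdx2, Prdx5 and Prdx3 stayed negative and Nfe2l2 positive under both kinds of offset. Prdx3 stood at -0.33 with the first offsets (edgeR adjusted p = 0.0887), beside -0.05 without them. With the replicate number as a block beside these offsets, Prdx2 (-0.44, edgeR adjusted p = 0.00342), Prdx5 (-0.30, edgeR adjusted p = 0.0191) and Prdx3 (-0.33, edgeR adjusted p = 0.023) were called lower as well as Sod1. The offsets remove GC and length trends together, and the share of each in the lost calls was not tested. Whether the trend with GC content arose in the libraries or in the tissue was not tested.

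**Figure D3:**
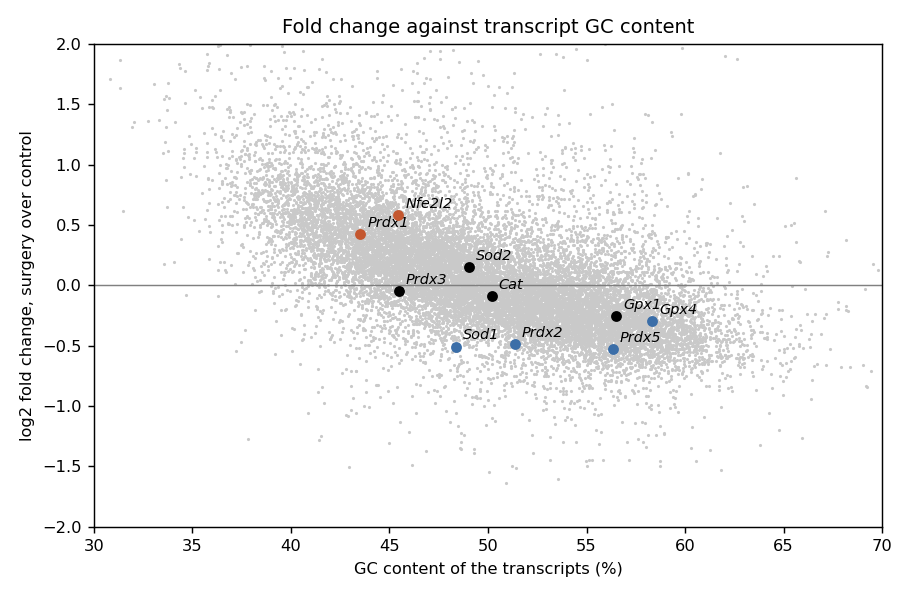
Log2 fold change, surgery over control, against transcript GC content in percent, with all genes tested in grey and the 10 genes as large points, orange where called higher, blue where called lower and black where not called. The grey cloud falls from left to right, with Prdx1 and Nfe2l2 on its left side and Gpx4 and Prdx5 on its right, and 87 genes lie beyond the axes.

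**Figure D4:**
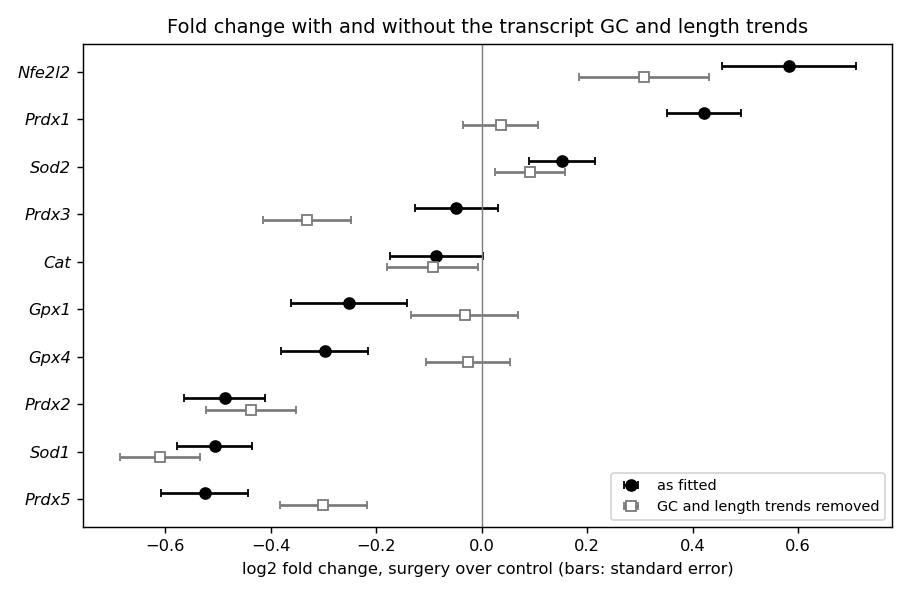
Log2 fold change of each gene with its standard error, as fitted (filled circles) and with GC and length trends removed (open squares), over 2 control and 2 surgery mice. Sod1 is at -0.51 and -0.61, while Prdx1 falls from 0.42 to 0.04 and Gpx4 moves from -0.30 to -0.03.

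The enzymes draw on a wider system of thioredoxin, glutathione and NADPH, which was described with 10 lists. Of the 125 genes on these lists 119 were in the table and 108 were tested. Of these, 10 (9.26%) were called higher and 23 (21.3%) lower, and their median log2 fold change was -0.09, beside 13.1% higher and 12.8% lower among all genes tested. Without control mouse 2 the counts were 6 higher and 6 lower, and without surgery mouse 2 the lower genes numbered 13. Over all genes tested fewer were called too without each of these mice. With the GC and length offsets described above, 0 of the pathway genes were called higher and 4 lower by edgeR, and 5 and 20 had an unadjusted p under 0.05. Of all 17144 genes tested, 99 were then called higher and 218 lower. Of the 33 genes called without the offsets, 4 were called with them (Txn1, Btrc, Me3 and Mt3) and 3 changed sign, and 21 of the 33 lost the call without at least 1 of the mice.

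In the thioredoxin list, 2 of 12 tested genes were called higher and 3 lower. Txn2, the mitochondrial thioredoxin that reduces PRDX3 and PRDX5, was measured at 97.8 and 99.0 CPM in control mice and at 73.8 and 66.4 CPM in surgery mice. Its log2 fold change was -0.49 (edgeR adjusted p = 0.0073), and at -0.37 with the offsets it was not called (edgeR adjusted p = 0.0796). Txn1, the cytosolic thioredoxin, had a log2 fold change of -0.34 (edgeR adjusted p = 0.0325), and it was 1 of the 4 pathway genes still called with the offsets (-0.54, edgeR adjusted p = 0.0454). Its call was lost on leaving out any of 3 of the 4 mice, with an edgeR adjusted p of up to 0.132, and was not made by DESeq2 (adjusted p = 0.0591). Srxn1, which repairs overoxidized peroxiredoxins, stood at -0.26 (edgeR adjusted p = 0.0382) and at -0.06 with the offsets. Txnl1, a thioredoxin-like protein, was called higher at 0.39 (edgeR adjusted p = 0.0115), but stood at -0.16 with the offsets. Txnrd1, the cytosolic thioredoxin reductase, was not called (0.13, edgeR adjusted p = 0.237).

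In the list of glutathione synthesis and glutaredoxins 3 of 12 tested genes were called higher and 0 lower by edgeR, while 2 lower genes had an unadjusted p under 0.05 and DESeq2 called 1 of the list lower. With the offsets 0 of the list were called higher. Slc7a11, the transporter that brings in cystine for glutathione synthesis, had the largest fold change of the pathway genes named here, at 23.6 and 23.8 CPM in control mice and 44.1 and 69.8 CPM in surgery mice. Its log2 fold change was 1.27 (SE 0.21, edgeR adjusted p = 0.00818), a fold of 2.41, and it kept a value of 0.90 to 1.54 without each mouse in turn, while the offsets gave 0.80 (edgeR adjusted p = 0.0749). Gclm, the modifier subunit of the enzyme that starts glutathione synthesis, was at 34.5 and 36.4 CPM in control mice and 49.0 and 46.8 CPM in surgery mice (log2 fold change 0.43, edgeR adjusted p = 0.0129), and the offsets gave 0.18 (edgeR adjusted p = 0.306). Its catalytic partner Gclc stood at 0.03 (edgeR adjusted p = 0.751). Glrx2, the mitochondrial glutaredoxin, was called higher at 0.45 (edgeR adjusted p = 0.0138) but stood at 0.14 with the offsets (edgeR adjusted p = 0.462), and Gsr, which regenerates glutathione, was not called at 0.29 (edgeR adjusted p = 0.132). Of 16 glutathione transferases tested, 0 were higher by edgeR, DESeq2 or limma's voom, also at an unadjusted p under 0.05. By edgeR 2 were lower, Mgst3 (-0.51, adjusted p = 0.015) and Gstp1 (-0.48, adjusted p = 0.00633), and 29.2% of the windows of Gstp1 are shared with other genes. With the offsets neither was called, at -0.51 for Mgst3 and -0.28 for Gstp1 (edgeR adjusted p = 0.0579 and 0.0988).

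The genes around NRF2 were called in both directions without the offsets. Among its partners and regulators 2 of 13 were called higher and 4 lower, beside 13.1% higher and 12.8% lower among all genes tested. With the offsets 0 were called higher and 1 lower. Cul3, the scaffold of the ligase that marks NRF2 for degradation, was measured at 89.2 and 82.6 CPM in control mice and at 129.6 and 137 CPM in surgery mice, a log2 fold change of 0.63 (edgeR adjusted p = 0.00454) that turned to -0.10 with the offsets. Gsk3b, a kinase that also marks NRF2 for degradation, was called higher at 0.44 (edgeR adjusted p = 0.00608), and at 0.15 with the offsets it was not (edgeR adjusted p = 0.241). Among the 4 lower genes Btrc stood at -0.30 (edgeR adjusted p = 0.0164), and it was still called with the offsets at -0.50 (edgeR adjusted p = 0.0329). Bach1, a repressor at the same promoter elements, was not called (0.32, edgeR adjusted p = 0.0942). Of 20 NRF2 target genes tested, 2 were called higher, Slc7a11 and Gclm, and 6 lower, and the median was -0.12 on the log2 scale. With the offsets 0 of the 20 were called by edgeR in either direction. The ones called lower without the offsets included Ftl1, the ferritin light chain, at -0.66 (edgeR adjusted p = 0.0146), and 42.3% of its windows are shared with other genes. They also included 2 enzymes on the NADPH list, Pgd at -0.38 (edgeR adjusted p = 0.0387) and Tkt at -0.35 (edgeR adjusted p = 0.0191). The offsets gave -0.42 for Ftl1, -0.32 for Pgd and -0.16 for Tkt (edgeR adjusted p = 0.125, 0.125 and 0.333). Nqo1, a common readout of NRF2 activity, was low and overlapping, at 3.43 and 5.42 CPM in control mice and 4.26 and 7.82 CPM in surgery mice (0.45, edgeR adjusted p = 0.397). Hmox1, the inducible heme oxygenase, stood at 0.11 (edgeR adjusted p = 0.743).

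NADPH supply had 1 higher and 4 lower genes of 12, beside 13.1% higher and 12.8% lower among all genes tested. The lower ones were led by Pgls, an enzyme of the pentose phosphate pathway, at -0.62 (edgeR adjusted p = 0.0183). With the offsets 0 of this list were called higher and 1 lower, and Pgls stood at -0.28 (edgeR adjusted p = 0.235). Of the windows of Pgls, 18.1% are shared with another gene. Among 11 genes of selenoprotein synthesis, on which GPX1 and GPX4 depend, 2 were higher and 1 lower. Selenop, the secreted selenium carrier, was measured at 148 and 153 CPM in control mice and at 215 and 205 CPM in surgery mice (log2 fold change 0.48, edgeR adjusted p = 0.00502), and Secisbp2l stood at 0.37 (edgeR adjusted p = 0.0152). Neither was called with the offsets, at 0.16 for Selenop (edgeR adjusted p = 0.283) and 0.11 for Secisbp2l (edgeR adjusted p = 0.505). Scly, which recovers selenium from selenocysteine, was the lower one at -0.57 (edgeR adjusted p = 0.0278). Its call was lost on leaving out any of 3 mice and with the offsets (-0.39, edgeR adjusted p = 0.197). None of 11 sources of superoxide and peroxide was called by edgeR, DESeq2 or limma's voom in either direction, 0 had an unadjusted p under 0.05, and the median was 0.05 on the log2 scale.

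The list of methionine sulfoxide reductases, metallothioneins and Park7 had 5 of 7 genes lower and 0 higher by edgeR, with 1 higher gene at an unadjusted p under 0.05 and 0 called higher by DESeq2 or limma's voom, and a median of -0.42. Mt3, the brain metallothionein that binds zinc and copper, was at 229 and 244 CPM in control mice and at 149.9 and 128 CPM in surgery mice, a log2 fold change of -0.77 (SE 0.090, edgeR adjusted p = 0.00464), and it was still called with the offsets (-0.51, edgeR adjusted p = 0.0454). Mt1, a metallothionein induced by metals and glucocorticoids, was measured at 209 and 276 CPM in control mice and at 170.3 and 139.7 CPM in surgery mice (-0.65, edgeR adjusted p = 0.023). Msrb1, a selenoprotein that repairs oxidized methionine, stood at -0.63 (edgeR adjusted p = 0.0185). With the offsets Mt1 was at -0.49 and Msrb1 at -0.46, and neither was called (edgeR adjusted p = 0.113 and 0.111). Of the list, 1 gene was then called lower and 0 higher.

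**Figure D5:**
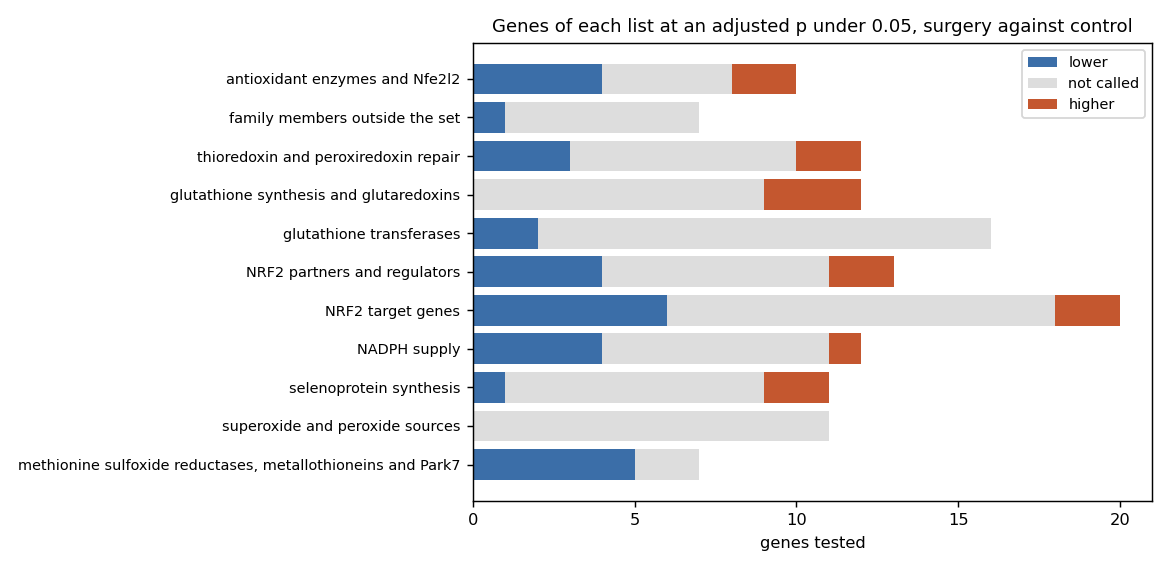
Number of tested genes in each list, split into those called lower (blue), not called (grey) and called higher (orange) at an adjusted p under 0.05, surgery against control. The 10 genes described here have 4 lower and 2 higher, glutathione synthesis has 3 higher and 0 lower, and the list with methionine sulfoxide reductases has 5 lower of 7.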

How the data were processed

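Hippocampal RNA of 2 control and 2 surgery mice was compared by group as labelled. The deposited values are raw counts per gene. Per the labels and the methods, the authors aligned reads of 150 bases to mm10 with HISAT2 2.1.0 and counted genes with HTSeq 0.6.0. The labels also name Bowtie2 2.2.3 and TopHat2 without giving their roles. The strand setting and annotation version were not given in the sources used here. Columns in the table with the authors' own fold changes and p-values were not used, and 0 other columns of per-sample values were left out. Counts as deposited were filtered with filterByExpr (minimum count 10), scaled by TMM and tested in edgeR 4.0.16 (R 4.3.3) by the quasi-likelihood F test with condition as the only term, with Benjamini-Hochberg adjustment over all 17144 genes. Called means an adjusted p under 0.05. CPM values use TMM library sizes. The script was tested on simulated data. GC content, lengths and shared windows of 75 bases came from GENCODE M21 transcripts, and promoters from RefSeq. Alternatives were DESeq2 1.42.0, limma 3.58.1 voom, other scalings, filters and thresholds, GC and length offsets fitted with mgcv 1.9-3, a replicate block and each mouse left out.

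Members and lists were chosen with earlier results of these data known. All 10 members were named, and from the other lists 13 anchor genes and in each list at most the 3 called genes with the largest absolute log2 fold change, a mean of at least 1 CPM and no overlap between groups. Genes named outside this rule were chosen after their values were seen. They are the markers Gad2, Slc17a7, Slc1a2, Aldh1l1 and P2ry12, then Gpx3, Gpx7, Gpx8, Btrc and Me3, and Nnt, Cybb, Maoa and Maob in the closing section. Replicates were checked and differed by more than sampling noise (chi-square per degree of freedom 13.4 in control and 8.45 in surgery mice). Nothing says more of the mice than their group, so p-values rest on the spread between these 2 samples a group. The edgeR fit also draws the spread of each gene towards that of all genes tested, so a p-value does not rest on 1 gene's own spread alone.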

Additional observations from a re-analysis of the deposited data

How the results depend on the processing

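Of 141 values of single members under the alternatives, 118 kept their direction and side of the threshold, 19 lost the call, 1 gained it and 3 reversed. The reversed values were Sod2 (-0.30) and Prdx1 (-0.0189) with principal-transcript offsets, which were chosen after seeing the data, and Cat (8.851e-05) without control mouse 2, the upper end of a range from -0.1766 without control mouse 1. Gpx4 lost its call with library totals only (edgeR adjusted p = 0.0685), with no count filter (0.0967) and with a minimum count of 30 (0.0527). The cause was not tested.

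With library totals only, 1 member passed the fold limits and 224 genes of all passed the lower limit. With no count filter, 1315 genes were called higher and 1350 lower, and 11 pathway genes lower. With a minimum count of 30, 1 member passed the fold limits. With an adjusted p under 0.01, 1 member was higher, and 870 and 749 genes were called. With GC and length offsets, 0 members were higher, 1 lower and 1 past the fold limits, with a median of -0.0627, 99 and 218 genes were called, 67 and 70 passed the fold limits, and 0 and 4 pathway genes were called. With principal-transcript offsets, these were 0 and 2 members, 105 and 176 genes, 68 and 61 past the limits, and 0 and 3 pathway genes.

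Without each mouse in turn, 1 to 2 members were called higher and 3 to 4 lower, 0 to 3 passed the fold limits (2 without control mouse 1, 3 without surgery mouse 1), and the median ran from -0.278 (without control mouse 1) to -0.0984 (without control mouse 2). Over all genes, 1201 to 2025 were called higher and 1207 to 2080 lower, with the lowest values without control mouse 2 and 1347 lower genes without surgery mouse 2. Past the fold limits were 754 to 1312 higher (754 without control mouse 2) and 254 to 614 lower (254 without control mouse 2, 614 without surgery mouse 1). The pathway counts were 6 to 10 higher and 6 to 22 lower. A lone mouse was then assumed to vary like the other group.

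Mice with the same replicate number share only the number. Their deviations correlated at 0.26 over 17144 genes, and no more than 2 pairs exist. With the replicate block 2 members were called higher and 4 lower, with 2653 and 2626 genes of all, and no call of a member changed. With the replicate block and GC and length offsets together, 0 members were higher and 4 lower (Sod1, Prdx2, Prdx3 and Prdx5), 1 passed the fold limits, and the median was -0.061. In that fit 829 genes were called higher and 1771 lower, 268 and 179 passed the fold limits, and 4 pathway genes were higher and 18 lower.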

Other observations

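Nnt, the mitochondrial transhydrogenase that makes NADPH for glutathione and thioredoxin in the matrix, had few counts in all 4 libraries, at 0.581 and 0.219 CPM in control mice and 0.251 and 0.356 CPM in surgery mice, too low to be tested. It was singled out after its values were seen, as were Cybb, Maoa and Maob, and 46.4% of its windows of 75 bases also occur in another annotated gene of the same name. The phagocyte oxidase gene Cybb, a source of superoxide in microglia and neutrophils, was also low, at 0.406 and 1.04 CPM in control mice and 0.627 and 2.07 CPM in surgery mice, and was not called (edgeR adjusted p = 0.374). The monoamine oxidases, which release hydrogen peroxide at the outer mitochondrial membrane, stood at 27.5 and 28.3 CPM in control mice and 29.2 and 37.6 CPM in surgery mice for Maoa, and at 17.8 and 23.7 CPM in control mice and 29.3 and 24.7 CPM in surgery mice for Maob. In both genes the surgery mice were above the control mice without overlap, and neither was called by edgeR (adjusted p = 0.201 for Maoa and 0.14 for Maob). With the GC and length offsets Maoa turned to a log2 fold change of -0.36, from 0.26, and Maob stood at 0.13, from 0.38.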
